A study of Mus musculus with 8 samples.

Results

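Transcript levels of 9 genes that encode parts of the sperm tail were examined in round spermatids (haploid male germ cells that have not yet elongated) of mice with 4 genotypes at Piwil1, the gene of the piRNA-binding protein MIWI. The genes were Akap3, Akap4, Fscb, Odf1, Odf2, Odf3, Odf4, Oaz3 and Smcp. They were taken by name, as genes of the fibrous sheath, the outer dense fibres and nearby tail structures. The names were picked with earlier results of these data known, so counts among them are a description and not the outcome of a blind choice. All 9 were found, each on a single transcript cluster (a group of probes for 1 transcript unit), among 19938 genes that had a cluster with 1 gene symbol. All arrays came from adult C57BL/6 mice without treatment. A null allele was paired with a wild-type one in MIWI +/-, with another null in MIWI -/- and with a knock-in one in MIWI -/KI. In MIWI +/KI the knock-in allele stood beside a wild-type one. The knock-in allele is not described further in the labels, and the series title concerns MIWI catalysis and silencing of LINE1 transposons. No group had 2 wild-type alleles, so the comparison group MIWI +/- was itself heterozygous. Each genotype had 2 arrays, called biological replicates, whose round spermatids were pooled from gradient fractions. The sources used here do not give the number of animals per preparation.

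The sperm tail is built during the later, elongating part of spermatid development. Outer dense fibres run along the axoneme, and in the principal piece the fibrous sheath surrounds them and anchors protein kinase A and glycolytic enzymes. In the midpiece a sheath of mitochondria takes the place of the fibrous sheath. Many transcripts for these structures are made in round spermatids and translated only later, after storage as untranslated mRNA, for which Smcp is a well studied case.

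Promoter sequences were set out for the 3 genes that held the same 8 letters, TGATGTCA, just before their start, because 2 of the 3 were among the genes that differed most between genotypes. They are the 250 bases before the annotated start in RefSeq (GRCm38.p6), 5′ to 3′ on the gene's strand, with TGATGTCA in capitals. The Akap3 window is chr6:126852848-126853097 (plus strand), the Akap4 window chrX:7067265-7067514 (plus strand, 1 of 2 annotated starts) and the Fscb window chr12:64474899-64475148 (minus strand).
Akap3: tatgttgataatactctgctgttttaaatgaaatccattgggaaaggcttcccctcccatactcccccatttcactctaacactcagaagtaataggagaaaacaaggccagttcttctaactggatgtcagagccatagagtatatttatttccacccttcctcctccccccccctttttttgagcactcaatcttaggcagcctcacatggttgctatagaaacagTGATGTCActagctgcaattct
Akap4: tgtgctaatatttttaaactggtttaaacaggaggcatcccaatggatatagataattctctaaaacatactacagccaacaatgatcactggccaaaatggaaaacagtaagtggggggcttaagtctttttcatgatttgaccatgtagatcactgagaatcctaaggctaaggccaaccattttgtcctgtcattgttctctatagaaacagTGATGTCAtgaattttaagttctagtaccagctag
Fscb: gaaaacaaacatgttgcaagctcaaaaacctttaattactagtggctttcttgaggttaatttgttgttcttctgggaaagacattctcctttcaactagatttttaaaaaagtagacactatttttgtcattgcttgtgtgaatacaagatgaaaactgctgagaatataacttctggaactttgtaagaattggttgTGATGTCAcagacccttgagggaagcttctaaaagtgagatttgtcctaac
Counted back from the base just before the start as -1, the 8 letters lie at -22 to -15 in Akap3, at -35 to -28 in Akap4 and at -51 to -44 in Fscb. Akap3 and Akap4, the anchoring protein genes, also share the run of 20 bases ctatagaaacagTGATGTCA, which was found in 2 of 32851 promoters of the table, those of these 2 genes. The table held 11 promoters of 7 of the 9 genes, with no entry for Odf1 and Oaz3. TGATGTCA, searched on both strands, was present in 3 of the 7 genes and in 3.41% of all 27025 genes, and it was added to the search after these sequences had been seen. A further copy starts 1 base before the start in Akap3, and another starts at base 25 after it in Smcp, both reaching past the window. Of the motifs listed at the outset, TGACGTCA, the full cAMP response element, was in 0 of 7 genes against 1.77% of all. TATAAA was in 0 of 7 against 14.3%. TGACG, which is also contained in TGACGTCA, was in 1 of 7, Odf2, against 19.8%. These matches describe letters in a window and were not tested as binding sites.

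Across the series, array medians lay between 66.6 and 71.8 intensity units. Log2 values correlated across clusters with r of 0.970 to 0.995 between arrays of 1 genotype and 0.960 to 0.988 between genotypes. The lowest of the former was the MIWI -/KI pair, so results that rest on it are also given without either array. Piwil1, read on cluster 10525961, lay at 389 and 371 in MIWI +/-, 196 and 151 in MIWI -/-, 671.9 and 696 in MIWI -/KI and 679.8 and 749 in MIWI +/KI. MIWI -/- therefore held the lowest 2 arrays, in the direction of its label, although the sources used here do not place its probes relative to the deleted part.

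The tail genes were lower in spermatids without a wild-type allele. Compared with MIWI +/-, 7 of the 9 passed the threshold as lower in MIWI -/- (limma, Benjamini-Hochberg adjusted p under 0.05 over all clusters) and 6 in MIWI -/KI, and none passed as higher. Over all 19938 genes, 3.53% were called lower and 2.6% higher in MIWI -/-, and 3.12% lower and 3.11% higher in MIWI -/KI. Among the 1086 genes at least as bright as the dimmest of the 9, the shares were 11.5% and 10.8%. The median log2 fold change of the 9 genes was -0.73 in MIWI -/- and -0.72 in MIWI -/KI, beside 0.01 and -0.00 over all genes. The arrays of 8 of the 9, all but Odf3, lay below both MIWI +/- arrays in either genotype, which was so for 22.4% and 18.2% of all genes. Both comparisons use the same 2 MIWI +/- arrays, and without either of them fewer of the 9 genes and fewer of all genes were called. Leaving out other arrays also changed the counts, among the 9 and over all genes.

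**Figure D1:**
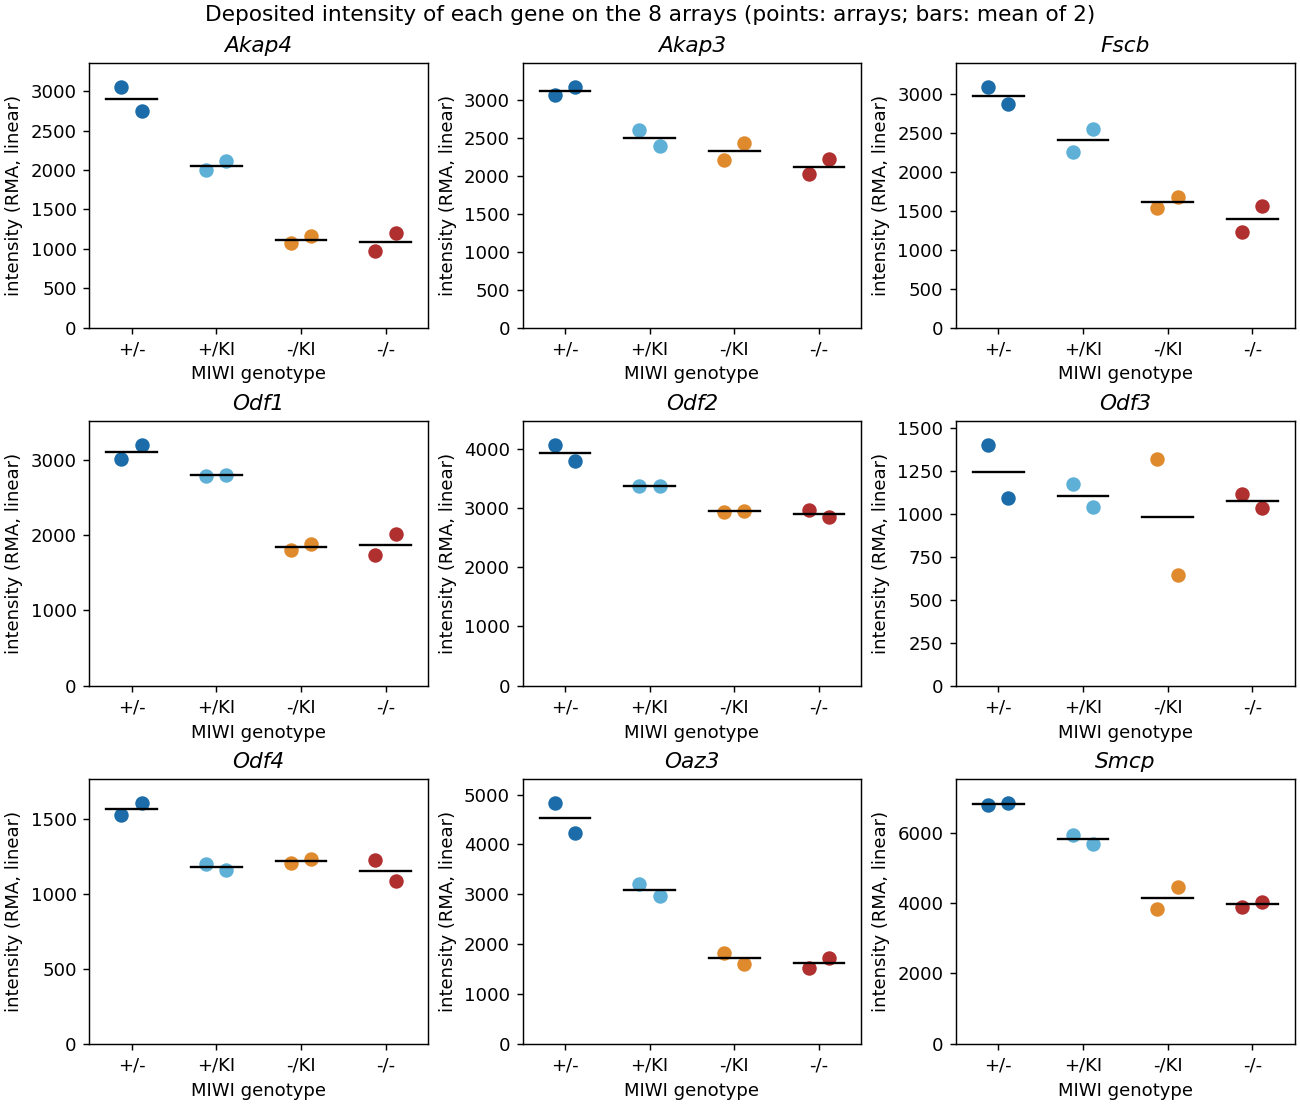
Deposited intensity (linear scale, y axis from 0) of each of the 9 genes in the 4 genotypes (x axis), with a point for each array and a bar at the mean of the 2 arrays. Akap4, Fscb, Oaz3, Odf1 and Smcp show a clear step down to MIWI -/KI and MIWI -/-, from 3052 and 2752 to 977 and 1206 in Akap4, while Odf3 shows overlapping points and a wide gap between the 2 MIWI -/KI arrays.

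Among the 3 fibrous sheath genes of the 9, Akap4 had the largest difference. Akap4 encodes the most abundant structural protein of the sheath, an anchor for protein kinase A. On cluster 10598279 it lay at 3052 and 2752 in MIWI +/-, 1995 and 2116 in MIWI +/KI, 1068 and 1167 in MIWI -/KI and 977 and 1206 in MIWI -/-. The genotypes fell into 3 levels without overlap, with MIWI +/- highest, MIWI +/KI next, and the 2 genotypes without a wild-type allele overlapping at the bottom. Akap4 was 2.67-fold lower in MIWI -/- than in MIWI +/- (log2 fold change -1.42, SE 0.14, adjusted p = 0.00116) and 2.60-fold lower in MIWI -/KI (-1.38, SE 0.14, adjusted p = 0.00158).

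Fscb, whose product binds the calcium-binding sheath protein CABYR, lay on cluster 10400564 at 3086 and 2865 in MIWI +/-, 2259 and 2547 in MIWI +/KI, 1533 and 1679 in MIWI -/KI and 1221 and 1560.1 in MIWI -/-. It followed the same 3 levels. The difference from MIWI +/- was -1.11 in MIWI -/- (SE 0.15, adjusted p = 0.00473), which is 2.15-fold, and -0.89 in MIWI -/KI (SE 0.15, adjusted p = 0.0131). The call in MIWI -/- was lost without MIWI +/- replicate 1 (adjusted p = 0.0607), and the call in MIWI -/KI without either MIWI +/- array (0.127 and 0.0863).

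Akap3, an anchoring protein that is incorporated early in sheath assembly and binds AKAP4, differed less. On cluster 10541998 its arrays were at 3058 and 3167 in MIWI +/-, 2605 and 2396 in MIWI +/KI, 2213 and 2432 in MIWI -/KI and 2022 and 2218 in MIWI -/-. The MIWI +/- arrays stood above all others, while those of MIWI -/KI overlapped both MIWI +/KI and MIWI -/-. It was 1.47-fold lower in MIWI -/- (log2 fold change -0.56, SE 0.11, adjusted p = 0.0301), a call that was lost in 6 of the 8 fits with an array left out (adjusted p of 0.0704 to 0.225). In MIWI -/KI the difference of -0.42 did not pass (SE 0.11, adjusted p = 0.0818). The pair of anchoring proteins that share the promoter run thus differed in the size of the change from MIWI +/-, with intervals of -1.74 to -1.09 for Akap4 and -0.81 to -0.30 for Akap3 in MIWI -/- (95% confidence, log2).

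The outer dense fibre genes were uneven. Odf1, a major cysteine-rich fibre protein, had the largest difference of the 4. On cluster 10423798 it lay at 3009.8 and 3198 in MIWI +/-, 2784 and 2808 in MIWI +/KI, 1801 and 1889 in MIWI -/KI and 1742 and 2011 in MIWI -/-. The 4 arrays with a wild-type allele were all above the 4 without. Odf1 was 1.66-fold lower in MIWI -/- (log2 fold change -0.73, SE 0.11, adjusted p = 0.0102) and 1.68-fold lower in MIWI -/KI (-0.75, SE 0.11, adjusted p = 0.00905). Without MIWI +/- replicate 1 or 2 these calls were lost (0.0760 and 0.116 in MIWI -/-, 0.0703 and 0.1005 in MIWI -/KI).

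Odf2 encodes a fibre protein that is also part of centrosomes. On cluster 10470788 it gave 4064 and 3789 in MIWI +/-, 3367 and 3380.3 in MIWI +/KI, 2933.5 and 2955 in MIWI -/KI and 2967 and 2842 in MIWI -/-. Here too the 4 arrays with a wild-type allele were above the 4 without. The differences were small, -0.43 in MIWI -/- (SE 0.094, adjusted p = 0.0404) and -0.41 in MIWI -/KI (SE 0.094, adjusted p = 0.0469). Each call was lost in 6 of 8 fits with an array left out (adjusted p of 0.0706 to 0.291 and of 0.0514 to 0.324).

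Odf4, a tail protein gene, lay on cluster 10387194 at 1529 and 1605.0 in MIWI +/-, 1202 and 1161 in MIWI +/KI, 1203 and 1233 in MIWI -/KI and 1223 and 1085 in MIWI -/-. The MIWI +/- arrays stood apart from all others. Neither the difference in MIWI -/- (-0.44, SE 0.12, adjusted p = 0.0929) nor that in MIWI -/KI (-0.36, SE 0.12, adjusted p = 0.169) passed. Odf3, whose product also lies in the outer dense fibres, gave 1399 and 1089 in MIWI +/-, 1171 and 1038 in MIWI +/KI, 1317 and 642 in MIWI -/KI and 1115.0 and 1036 in MIWI -/- on cluster 10558698. The MIWI -/KI arrays differed 2.05-fold from each other, and all genotypes overlapped MIWI +/-. Its difference of -0.20 in MIWI -/- (SE 0.30, adjusted p = 0.902) had an interval of -0.90 to 0.50 (95% confidence), which leaves room for a change as large as that of Odf1. The difference of MIWI -/KI from MIWI +/- was -0.42 (adjusted p = 0.617) with both arrays. Its sign depended on which array stood for MIWI -/KI: it was -0.94 on replicate 2 alone and 0.09 on replicate 1 alone.

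Oaz3 had the largest difference of all 9 genes. It encodes a haploid germ cell antizyme, a regulator of polyamine synthesis, and is also needed for a firm junction of sperm head and tail. On cluster 10499981 it lay at 4827 and 4235 in MIWI +/-, 3207 and 2956 in MIWI +/KI, 1817 and 1609.6 in MIWI -/KI and 1515 and 1720.2 in MIWI -/-. As in Akap4, there were 3 levels, with the 2 lowest genotypes overlapping. Oaz3 was 2.80-fold lower in MIWI -/- (log2 fold change -1.49, SE 0.13, adjusted p = 0.000599) and 2.64-fold lower in MIWI -/KI (-1.40, SE 0.13, adjusted p = 0.000894). The calls of Oaz3 and Akap4 against MIWI +/- held in all 19 alternative fits of each comparison.

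Smcp encodes a cysteine-rich protein of the mitochondrial capsule in the midpiece. Its arrays on cluster 10499906 were at 6774 and 6836 in MIWI +/-, 5936 and 5679.8 in MIWI +/KI, 3829 and 4463 in MIWI -/KI and 3883 and 4038 in MIWI -/-. All arrays with a wild-type allele lay above all arrays without. Smcp was 1.72-fold lower in MIWI -/- (log2 fold change -0.78, SE 0.099, adjusted p = 0.00384) and 1.65-fold lower in MIWI -/KI (-0.72, SE 0.099, adjusted p = 0.00598). The call in MIWI -/- was lost without MIWI +/- replicate 2 (0.0501), and that in MIWI -/KI without either MIWI +/- array (0.0630 and 0.0671).

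MIWI -/KI was also compared with MIWI +/KI, which asks about the wild-type allele where both groups carry a knock-in allele and which shares no array with MIWI -/- against MIWI +/-. Of the 9 genes, 3 passed as lower, beside 1.29% of all genes and 3.87% of those at least as bright as the dimmest of the 9. Akap4 was lower by 1.84-fold (log2 fold change -0.88, SE 0.14, adjusted p = 0.0246), Oaz3 by 1.80-fold (-0.85, SE 0.13, adjusted p = 0.0208) and Odf1 by 1.52-fold (-0.60, SE 0.11, adjusted p = 0.0441). Smcp (-0.49, adjusted p = 0.0553) and Fscb (-0.58, adjusted p = 0.0998) lay lower without overlap and did not pass. Odf2 was at -0.20 (adjusted p = 0.355), Odf3 at -0.26 (adjusted p = 0.711), Akap3 at -0.11 (adjusted p = 0.681) and Odf4 at 0.04 (adjusted p = 0.889). The median of the 9 was -0.49, beside -0.03 over all genes, and 6 of 9 lay lower without overlap against 24.1% of all genes. The count depended on single arrays: it was 5 without MIWI -/KI replicate 1, 1 without MIWI -/KI replicate 2, and 0 without either MIWI +/KI or either MIWI +/- array. The number of all genes called, in either direction, moved with it, from 485 to 2664 and 254 without those MIWI -/KI arrays, to 42 and 45 without a MIWI +/KI array and to 196 without a MIWI +/- array. The count of the 9 was also 0 with array weights (1.26% of all genes) or with only the compared groups in the fit (0.502%). The sign of the Odf3 difference also hung on the MIWI -/KI array used, at -0.78 on replicate 2 alone and 0.26 on replicate 1 alone.

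**Figure D2:**
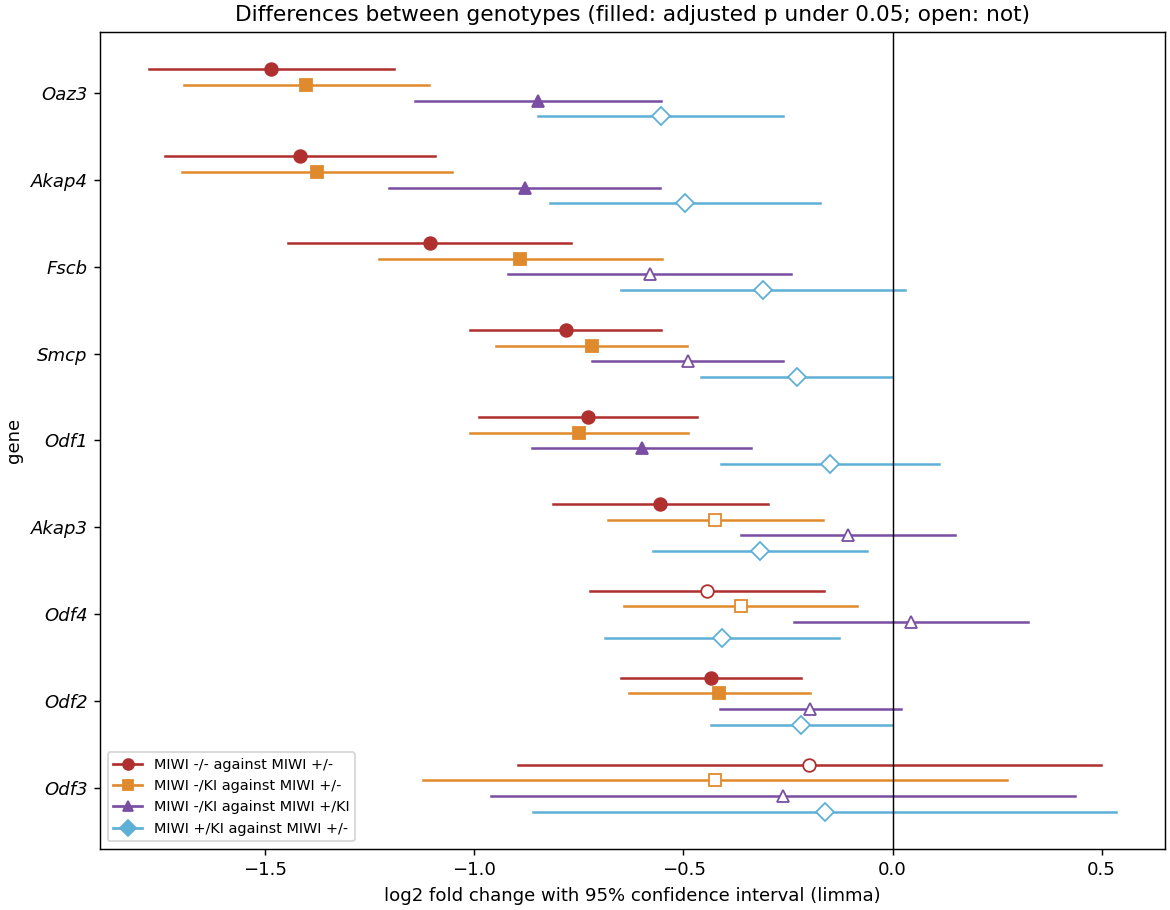
Log2 fold change (x axis, points) of each gene (y axis) in 4 comparisons, with 95% confidence intervals from limma as lines and filled points where the adjusted p was under 0.05. Differences from MIWI +/- run from -1.49 in Oaz3 to -0.20 in Odf3 for MIWI -/-, the points for MIWI -/KI against MIWI +/KI lie nearer to 0, and those for MIWI +/KI against MIWI +/- are all open and below 0.

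The knock-in allele was compared with the null allele beside a wild-type allele in MIWI +/KI against MIWI +/-. None of the 9 genes was called at an adjusted p under 0.05 (limma), beside 0.0953% of all genes. An unadjusted p under 0.05 was found in 6 of 9, and the share of all genes at that level is not given here. The differences were all below 0, from -0.55 in Oaz3 (SE 0.13, adjusted p = 0.166) through -0.50 in Akap4 (SE 0.14, adjusted p = 0.240), -0.41 in Odf4 (adjusted p = 0.256), -0.32 in Akap3 (adjusted p = 0.326), -0.31 in Fscb (adjusted p = 0.480), -0.23 in Smcp (adjusted p = 0.427), -0.22 in Odf2 (adjusted p = 0.425) and -0.16 in Odf3 (adjusted p = 0.921) to -0.15 in Odf1 (adjusted p = 0.715). The median was -0.31, beside 0.02 over all genes. In 8 of 9 genes both MIWI +/KI arrays lay below both MIWI +/- arrays, which was so for 26% of all genes. With array weights 4 of the 9 genes were called, beside 9.02% of all genes, and with only these groups in the fit 3, beside 7.39%. Akap4, Oaz3 and Odf4 were called in both. MIWI +/- had the highest mean in all 9 genes, and the mean of MIWI +/KI came second in 8, the exception being Odf4. This order was read for the 9 genes only and is a description, with no share over all genes beside it.

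No difference between MIWI -/KI and MIWI -/- was detected in the 9 genes. None passed in limma, none had an unadjusted p under 0.05, and over all genes 0% were called. None of the 9 lay lower without overlap, against 10.9% of all genes. Differences lay between -0.23 in Odf3 and 0.22 in Fscb (adjusted p = 0.998 for each of the 9). The intervals (95% confidence, log2) ran from -0.28 to 0.36 for Akap4 and from -0.21 to 0.38 for Oaz3. They ran from -0.12 to 0.56 for Fscb and from -0.92 to 0.47 for Odf3. Differences within these intervals could have been missed.

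Averaged over both pairs of genotypes, 7 of 9 genes were lower without than with a wild-type allele, beside 3.93% of all genes and 12.7% of those at least as bright as the dimmest of the 9. Oaz3 (-1.17, SE 0.090, adjusted p = 0.000260), Akap4 (-1.15, SE 0.099, adjusted p = 0.000462) and Fscb (-0.84, SE 0.10, adjusted p = 0.00254) led, followed by Odf1 (-0.66), Smcp (-0.64), Akap3 (-0.33, adjusted p = 0.0477) and Odf2 (-0.32, adjusted p = 0.0296). Odf3 (-0.23, adjusted p = 0.686) and Odf4 (-0.20, adjusted p = 0.272) did not pass. The 4 arrays without a wild-type allele lay below the 4 with one in 6 genes, and in 6.53% of all genes. The difference between the 2 pairs, that is, MIWI -/KI from MIWI +/KI minus MIWI -/- from MIWI +/-, was positive in 8 of 9 genes, with a median of 0.45 beside -0.03 over all genes. None of these differences passed in limma, and 0% of all genes were called at an adjusted p under 0.05. An unadjusted p under 0.05 was found in 5 of 9 genes, without a share of all genes at that level to set beside it. Oaz3 had the largest, 0.64 (SE 0.18, adjusted p = 0.219), then Akap4 at 0.54 (adjusted p = 0.346), Fscb at 0.53 (adjusted p = 0.379), Odf4 at 0.49 (adjusted p = 0.321) and Akap3 at 0.45 (adjusted p = 0.321).

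The 9 genes were next set against each other by their profiles, where the size of a change counts as well as its shape. Likeness was measured as the root mean square difference of log2 values over the 8 arrays, each gene centred on its own mean, with smaller values for more alike profiles. The closest pairs were Odf1 and Smcp (0.07), Akap3 and Odf2 (0.093), Akap4 and Oaz3 (0.10) and Odf2 and Odf4 (0.11). The farthest apart were Akap4 and Odf3 (0.58). Akap4 of the fibrous sheath was thus nearest to Oaz3, and Odf1 of the dense fibres to Smcp of the midpiece. Among 1049 genes whose genotype means spanned at least 1 on the log2 scale, those nearest to Akap4 were Txndc2 (0.086), a sperm thioredoxin, Akap1 (0.090), an anchoring protein of mitochondria, and Retreg1 (0.092). Nearest to Oaz3 were Tuba4a (0.095), an alpha tubulin, Akap1 (0.098) and Txndc2 (0.10). Fscb was nearest to Inpp4a (0.070), 4930579G18Rik (0.087) and Cdc14b (0.088). These values are descriptions over 8 arrays that all genes share.

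**Figure D3:**
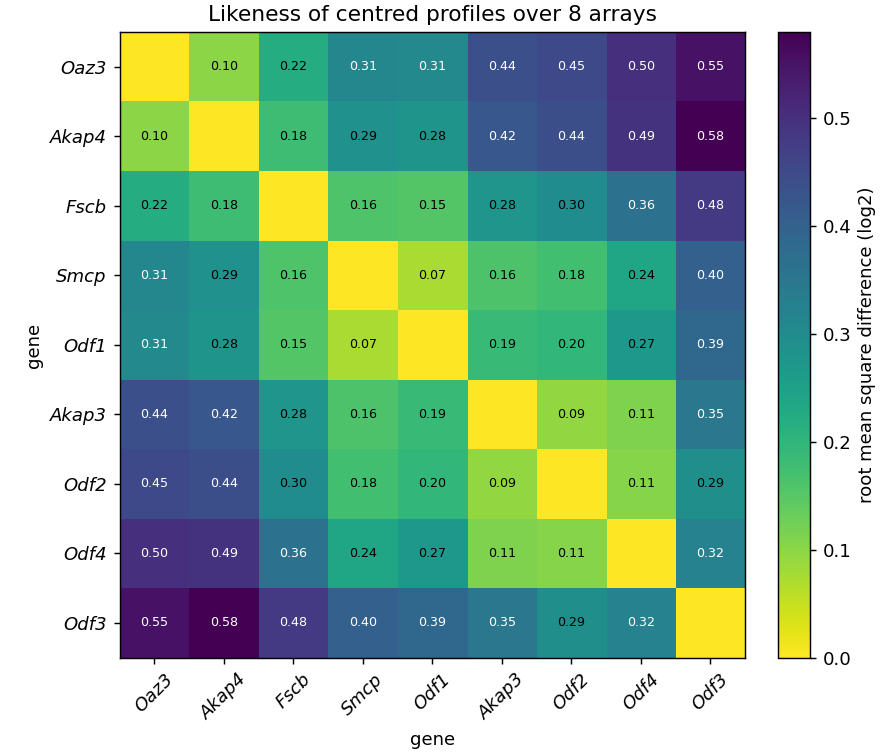
Root mean square difference of centred log2 profiles over 8 arrays for each pair of the 9 genes (both axes; colour and printed number, log2 units). Oaz3 and Akap4 (0.10) and Smcp and Odf1 (0.07) are close pairs, and Odf3 lies between 0.29 (Odf2) and 0.58 (Akap4) from the other genes.

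Markers of late spermatids moved with these genes. In bulk RNA, fewer cells of a type and less RNA per cell cannot be told apart. The 7 genes listed as markers of late spermatids included the protamine and transition protein genes. The arrays do not show whether their RNA came from round or from elongating cells. The 7 summed to 22049 to 25245 in MIWI +/-, 15159 to 15928 in MIWI +/KI, 4644 to 6751 in MIWI -/KI and 3371 to 4486 in MIWI -/-. The sums over the 9 tail genes also fell from MIWI +/- (29536 to 30797) to MIWI +/KI (24083 to 24528). Those of MIWI -/KI (17716 to 18069) and MIWI -/- (16664 to 17716) were lower still and overlapped. Of the 7 late markers, 6 were called lower than in MIWI +/- in MIWI -/- (median log2 fold change -2.85), 6 in MIWI -/KI (-2.15) and 0 in MIWI +/KI (-0.85). Compared with MIWI +/KI, 5 were lower in MIWI -/KI (-1.54), and between 1 and 6 with each array left out in turn. The marker not called in MIWI -/- was Hils1 (-0.95, adjusted p = 0.0783).

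The 12 markers of round spermatids, the labelled cell type, were all measured. They summed to 14593 to 15173 in MIWI +/-, 15279 to 16072 in MIWI +/KI, 15891 to 17919 in MIWI -/KI and 16809 to 17162 in MIWI -/-. In MIWI -/- 1 of them was called, Acr (0.77, higher), with a list median of 0.02. None of 11 spermatocyte markers was called in any comparison, with sums of 4764 to 7287, the highest in MIWI -/KI replicate 2. Of 11 Sertoli cell markers, 2 were lower in MIWI -/-, Cst12 (-1.31) and Aard (-1.14), and the sums were 2218 to 2402 in MIWI +/-, 1643 to 2018 in MIWI +/KI, 1293 to 1527 in MIWI -/KI and 1151 to 1662 in MIWI -/-. None of the markers of Leydig cells (4 measured), spermatogonia (6) or blood and macrophages (5) was called in any comparison. No detection call was made for any marker. The sums were low for Leydig cells (253 to 637) and for blood and macrophages (342 to 513), beside array medians of 66.6 to 71.8 per cluster. The absence of calls in these lists therefore says little. The part of any of these markers in the results on the tail genes was not tested.

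**Figure D4:**
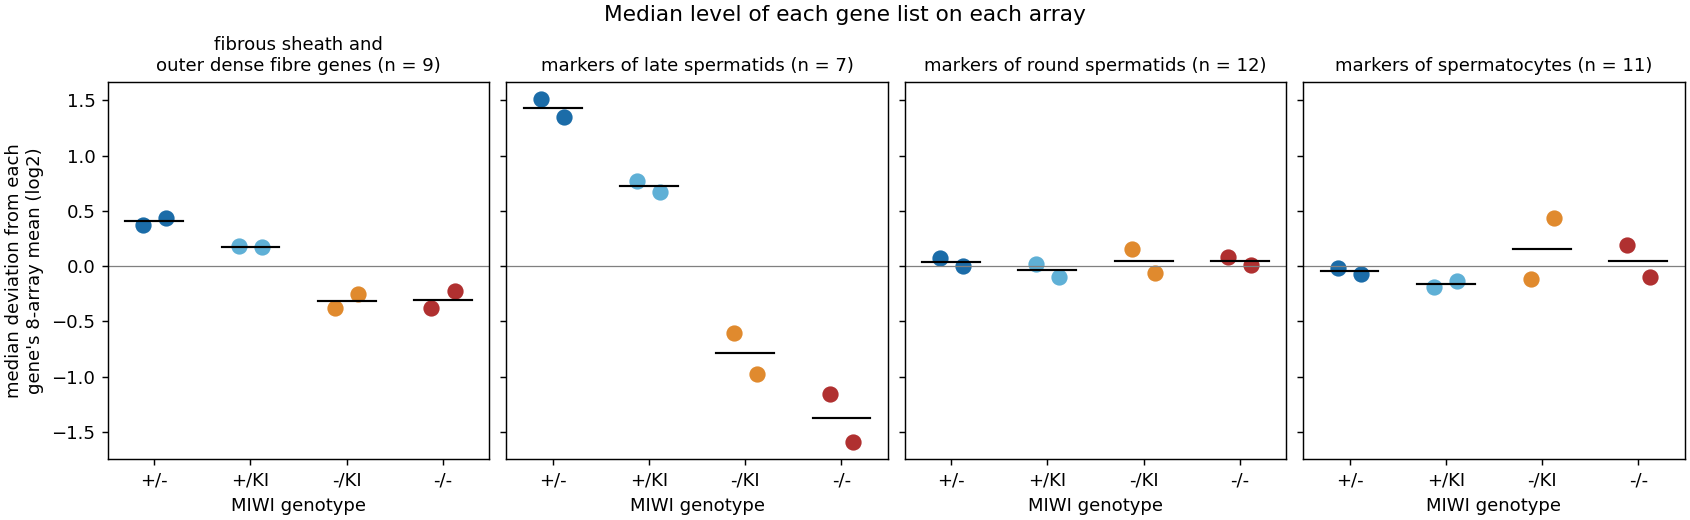
Median deviation of the genes of a list from their own mean over the 8 arrays (y axis, log2) on each array (points), by genotype (x axis), with bars at the mean of 2 arrays, for the 9 tail genes and for 3 marker lists. The tail genes and the late spermatid markers step down from MIWI +/- through MIWI +/KI to the genotypes without a wild-type allele, the late markers over a wider range, while the round spermatid markers stay near 0.

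Other genes of the same structures were read from lists of names. Of 13 other fibrous sheath genes, 4 were lower and 1 higher in MIWI -/-, with a median of -0.12. Gapdhs, the glycolytic enzyme held in the sheath, was the lowest (-1.30, SE 0.19, adjusted p = 0.00800), at 4205 and 4860.4 in MIWI +/- and 1483 and 2284 in MIWI -/-. Ropn1, a sheath protein with a docking domain like that of protein kinase A (-0.91, adjusted p = 0.0250), and the germ cell aldolase Aldoart1 (-0.87, adjusted p = 0.0403) were lower as well. Fsip2, a fibrous sheath interacting protein, was higher (0.81, adjusted p = 0.0168), at 1605 and 1465 in MIWI +/- and 2801 and 2597 in MIWI -/-. With each array left out in turn, between 0 and 5 of the 13 were lower and between 0 and 1 higher; none passed without MIWI +/- replicate 2, and Gapdhs passed in 7 of 8. The calls of Ropn1, Aldoart1 and Fsip2 were less stable, and each was lost in several of these fits. In MIWI -/KI against MIWI +/KI, 1 of the 13 was called, Gapdhs (-1.31, adjusted p = 0.0188). That call held in 5 of 8 fits with an array left out and was lost without MIWI -/KI replicate 2 or either MIWI +/KI array (adjusted p up to 0.197).

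Among 5 measured subunits of protein kinase A, the enzyme that AKAP3 and AKAP4 anchor, 1 was lower and none higher in MIWI -/-. This was Prkar2a, a regulatory subunit, at 1578 and 1257 in MIWI +/-, 890.1 and 852 in MIWI +/KI, 198 and 190.2 in MIWI -/KI and 156 and 214 in MIWI -/-. It was 7.71-fold lower in MIWI -/- (-2.95, SE 0.19, adjusted p = 0.000183) and 4.49-fold lower in MIWI -/KI than in MIWI +/KI (-2.17, SE 0.19, adjusted p = 0.00260). With an array left out, the first call held in 8 of 8 fits and the second in 7 of 8.

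The 13 other genes of dense fibres and tektins held 2 lower and 1 higher in MIWI -/-, with a median of 0.12. Odf3b, a relative of Odf3, lay at 501 and 487 in MIWI +/-, 445 and 477 in MIWI +/KI, 96.9 and 78.7 in MIWI -/KI and 83.0 and 81.4 in MIWI -/-. It was 6.00-fold lower in MIWI -/- (-2.59, SE 0.16, adjusted p = 0.000145), whereas Odf3 itself did not pass, and its call held with any array left out. Spata6, a gene of the sperm neck, was lower (-0.59, adjusted p = 0.0401), and Ccdc42, needed for the head to tail coupling, was higher (1.18, SE 0.19, adjusted p = 0.0108), at 330 and 383 in MIWI +/- and 689 and 939.9 in MIWI -/-. With an array left out, the call of Spata6 held in 3 of 8 fits and that of Ccdc42 in 5 of 8.

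Of 9 measured genes of the mitochondrial sheath beside Smcp, 2 were lower and none higher in MIWI -/- (median -0.41). Spata18, at 4325 and 3881 in MIWI +/- and 902 and 1050.3 in MIWI -/-, was 4.21-fold lower (-2.07, SE 0.13, adjusted p = 0.000145), and Spata19, which organises the sheath, was 2.50-fold lower (-1.32, SE 0.19, adjusted p = 0.00712). Their calls held in 8 of 8 and 6 of 8 fits with an array left out. Of 4 genes of the annulus, the ring between midpiece and principal piece, 1 was higher in MIWI -/-, Slc26a8 (0.57, adjusted p = 0.0316), a call that held in 2 of 8 fits with an array left out. Of these 5 lists of other tail genes, 3 held a gene called higher, and their medians lay between -0.41 and 0.12. The 9 genes had 7 lower, 0 higher and a median of -0.73 in the same comparison. Members and lists were named with earlier results known, and the lists held dimmer genes, such as Odf3l2 (mean of 34.3 in MIWI +/-). This contrast is therefore a description.

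**Figure D5:**
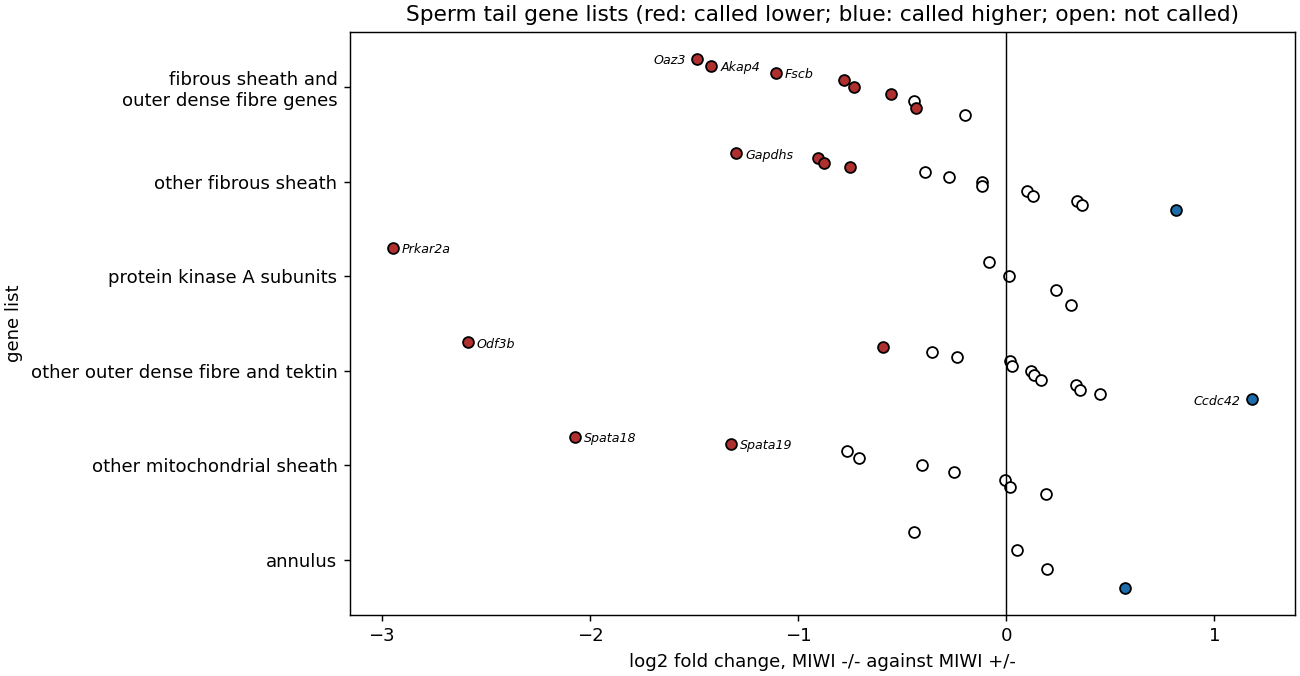
Log2 fold change in MIWI -/- against MIWI +/- (x axis) of every measured gene of 6 sperm tail lists (y axis; genes are spread vertically within a list for legibility), with red points called lower, blue called higher and open points not called. The 9 tail genes all lie below 0, while the other lists spread to both sides, from Prkar2a at -2.95 to Ccdc42 at 1.18.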

How the data were processed

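RNA of 8 round spermatid preparations, 2 for each genotype, was hybridised to Affymetrix arrays. According to the labels' protocols, testes were digested with collagenase, cells separated on a BSA gradient, and RNA extracted with Trizol. The authors deposited RMA intensity values on a linear scale per transcript cluster, per the submitters' processing notes (version not given). Array number limits precision. P-values reflect only how far these preparations differed, which may be partly technical.

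Log2 of each deposited intensity was fitted in limma 3.58.1 (R 4.3.3), with 1 mean per genotype over 8 arrays and variances moderated with an intensity trend (4 residual degrees of freedom). The two-sided p-values were adjusted by Benjamini-Hochberg over the 35512 clusters, and a gene was called at an adjusted p under 0.05. SE is limma's. In 8 cells a value over 100 times its row's other arrays was treated as missing, none of them in the 9 genes. Genes were read on their brightest single-symbol cluster, named by the platform annotation. Cross-hybridisation was not examined.

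Members and lists were chosen with earlier results of these data known. Named genes were all members, Piwil1, up to 4 called genes per list and comparison with the largest change, and the 3 nearest profiles of members spanning at least 1 (log2); others are single markers named after their values were seen. The code was tested on simulated data. Alternatives were array medians set equal, quantile normalization, dim clusters left out, intensity plus 16, no trend, other treatments of the odd cells, array weights, only the compared groups, a replicate block, and each array left out. The crossed block and list counts with an array left out were added after seeing the data.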

Additional observations from a re-analysis of the deposited data

Results flagged for a closer look

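Odf4 was set apart because its arrays moved in opposite directions in the 2 comparisons of a genotype without against one with a wild-type allele. Both MIWI -/- arrays (1223 and 1085) lay below both MIWI +/- arrays (1529 and 1605.0), while both MIWI -/KI arrays (1203 and 1233) lay above both MIWI +/KI arrays (1202 and 1161), the lower of them by about 1 unit of intensity. The log2 fold changes were -0.44 and 0.04. The difference between them, 0.49 (SE 0.17), did not pass limma's test over all clusters (adjusted p = 0.321).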

How the results depend on the processing

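Of the 9 genes, the number called in MIWI -/KI against MIWI +/KI went from 3 to 5 with dim clusters left out. Over all genes tested, calls in either direction went from 2.43% to 7.86%. The number among the 9 went to 0 when the fit held only the groups compared or used array weights. In MIWI +/KI against MIWI +/- it went from 0 to 3 with only the groups compared and to 4 with array weights. With 1 array left out in turn, where a lone array is assumed to vary like the other groups, the count ran from 3 to 7 in MIWI -/- against MIWI +/-, from 2 to 7 in MIWI -/KI against MIWI +/-, from 0 to 5 in MIWI -/KI against MIWI +/KI, and from 5 to 8 for the mean effect of lacking a wild-type allele. It stayed at 0 in the other 3 comparisons. Where the count among the 9 varied, the number of all genes called varied as well, so these counts do not concern the 9 genes alone. In MIWI -/- against MIWI +/- the count was 5, not 7, in 4 further settings, where Akap3 and Odf2 lost their calls: array medians set equal (adjusted p = 0.0520 and 0.0615), quantile normalization (0.0570 and 0.0865), no intensity trend (0.0614 and 0.107) and only the groups compared (0.0751 and 0.118). Over all genes, 5.51%, 5.7%, 6.42% and 4.77% were called in these 4 settings, in the same order and in either direction, beside 6.13% in the main fit. Odf1 lost its call in MIWI -/KI against MIWI +/KI with equal medians (0.0789) and no trend (0.0744). In MIWI -/KI against MIWI +/-, Odf2 lost its call in the same 4 settings and with array weights (adjusted p of 0.0795 to 0.203). Fscb lost its call there with array weights (0.0528), and Akap3 gained one with dim clusters left out (0.0445). For the mean effect, Akap3 lost its call with equal medians, quantile normalization, no trend and array weights (0.0647 to 0.0958). Odf2 lost it with equal medians (0.0595) and no trend (0.0836). The cause of these changes was not tested. No called difference changed sign in any alternative. Rescaling the arrays moved the median of all genes by at most 0.05 (log2).

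Replicate numbers were checked as pairs. Deviations of arrays with the same number correlated between genotypes with r of -0.26 to 0.30. The signs were mixed, and such values cannot exclude that some arrays shared a preparation. The main fit used no pairing. With a replicate block the counts were 6 in MIWI -/- against MIWI +/- and 5 in MIWI -/KI against MIWI +/-. They were 3 in MIWI -/KI against MIWI +/KI, 6 for the mean effect of lacking a wild-type allele and 0 in the others. In the same order, 5.85%, 5.74%, 1.96% and 7.7% of all genes were called in either direction, and 0% in the others. Odf2 lost its calls against MIWI +/- (adjusted p = 0.0509 in MIWI -/- and 0.0602 in MIWI -/KI), and Akap3 its call in that mean effect (0.0590). A crossed pairing of the MIWI -/- and MIWI -/KI arrays gave 0 calls among the 9.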
